A study of Mus musculus with 7 samples.

Results

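Genes of the epithelial-mesenchymal transition were examined in RNA of mouse retinal pigment epithelium (RPE), which lies between photoreceptors and choroid. The members were the 10 rows of the count table whose symbols are Cdh1, Cdh2, Cdh3, Vim, Acta2, Fn1, Snai1, Snai2, Zeb1 and Zeb2, out of 21861 rows in all. RNA came from aged mice, 12 weeks after they received an adeno-associated virus (AAV) vector: 3 libraries from AAV-GFP, the vector control, which carries a fluorescent protein, and 4 from AAV-GSTA4, which carries a glutathione transferase. The labels give no strain, exact age or sex, no promoter or route for the vectors, and no number of animals per library. They do not say that the libraries of a group came from separate animals, so a p-value here measures the spread between these libraries, which may be technical in part. Every comparison is between these 2 vector-treated groups, and values are listed in replicate order, AAV-GFP (the controls) first. The design asks what GSTA4 changed in the aged RPE.

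An epithelial-mesenchymal transition is the change by which cells of a sheet lose their junctions and polarity and become motile, matrix-producing cells. Its textbook form is a loss of E-cadherin with a gain of N-cadherin, vimentin, smooth muscle actin and fibronectin, under transcription factors of the Snail and ZEB families, which bind an E-box in DNA and repress epithelial genes. The RPE is an unusual epithelium: its junctions are built largely from cadherins other than E-cadherin, it contains vimentin while healthy, and its cells can pass through such a transition in proliferative vitreoretinopathy and in culture.

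A DNA element that the Snail and ZEB factors recognise was searched in the promoters of the members, because these factors repress epithelial genes through it. A RefSeq promoter table on build GRCm38.p6 held 4 of the 10 members (Acta2, Snai1, Vim and Zeb2), so Cdh1 and the other cadherins could not be searched. The searched word was CACCTG or its reverse complement CAGGTG, on both strands, in the 250 bases before a transcription start; 17.2% of the 32851 such windows in the table held it. The windows shown are those of the factors Snai1 (chr2:167537945-167538194, plus strand) and Zeb2 (chr2:45117443-45117692, minus strand, the most upstream of its starts); neither overlapped an annotated exon of a member. Both are written 5′ to 3′, with a match in capitals.
Snai1: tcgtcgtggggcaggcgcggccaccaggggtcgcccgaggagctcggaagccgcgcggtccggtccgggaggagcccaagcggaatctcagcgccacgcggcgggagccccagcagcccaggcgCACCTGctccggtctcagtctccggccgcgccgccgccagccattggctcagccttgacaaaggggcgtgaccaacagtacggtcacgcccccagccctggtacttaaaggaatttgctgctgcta
Zeb2: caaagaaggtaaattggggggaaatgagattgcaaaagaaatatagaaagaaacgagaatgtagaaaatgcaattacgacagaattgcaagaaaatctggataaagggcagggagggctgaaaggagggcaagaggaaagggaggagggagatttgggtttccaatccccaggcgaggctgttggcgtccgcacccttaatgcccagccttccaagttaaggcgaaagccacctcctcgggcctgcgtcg
The Snai1 window held 1 match, with 120 bases between the word and the annotated start, and the Zeb2 window held no match to the full word. The shorter run CACCT does occur in the Zeb2 window, but only the full word was searched. The windows tested for Acta2, Vim and the other Zeb2 starts held no full match either. A match describes the sequence only, and no binding was measured in these samples.

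Libraries held 15329181 to 28998964 counts, and levels are given as CPM, counts per 1000000 of the library total after trimmed-mean (TMM) scaling. The human GSTA4 row had at most 3 counts in each AAV-GFP library and 45 to 5239 counts in the AAV-GSTA4 libraries. The row for GFP (d2EGFP) did not separate the labelled groups, with 4.61 to 153 CPM in the controls and 0.411 to 8.58 CPM with AAV-GSTA4. The labelled tissue was present: of 15 RPE markers, 14 had at least 3 counts in every library, and the 15 together took 1.46% to 3.34% of counts in AAV-GFP and 2.49% to 4.25% in AAV-GSTA4. A pair of libraries stood apart. In AAV-GSTA4 replicate 2, 12 lens markers took 12.3% of counts, against 0.427% to 2.67% in the other 6 libraries. AAV-GFP replicate 3 correlated least with the rest (a mean r of 0.838 over genes, against 0.910 to 0.926) and had the highest share of 14 rod markers (5.57%, against 0.717% to 2.67%) and the lowest share of RPE markers. The rod share was lower in every AAV-GSTA4 library than in any control. In bulk RNA, fewer cells of a type and less RNA per cell cannot be told apart.

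All 10 members passed the filter on low counts, and 0 had an adjusted p-value under 0.05 for AAV-GSTA4 against AAV-GFP in edgeR's quasi-likelihood test (Benjamini-Hochberg adjustment over 15075 genes), where the background over all genes tested was also 0%. DESeq2 and limma-voom called 0 members as well; over all genes they called 201 and 146, and 0 with limma-voom without robust moderation. At an unadjusted p under 0.05 there was 1 member, Cdh3, higher in AAV-GSTA4, against 1794 or 11.9% of all genes (5.27% higher and 6.63% lower). None of the 10 had groups that did not overlap, a pattern seen in 12% of genes tested (6.44% higher and 5.61% lower). For 7 members the log2 fold change was above 0 and for 3 below, with a median of 0.29; over all genes 44.6% were above 0 and the median was -0.07. AAV-GSTA4 replicate 2 had the highest level of 7 members, and without it 4 were above 0 and 6 below, with a median of -0.25 against -0.08 for all genes.

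**Figure D1:**
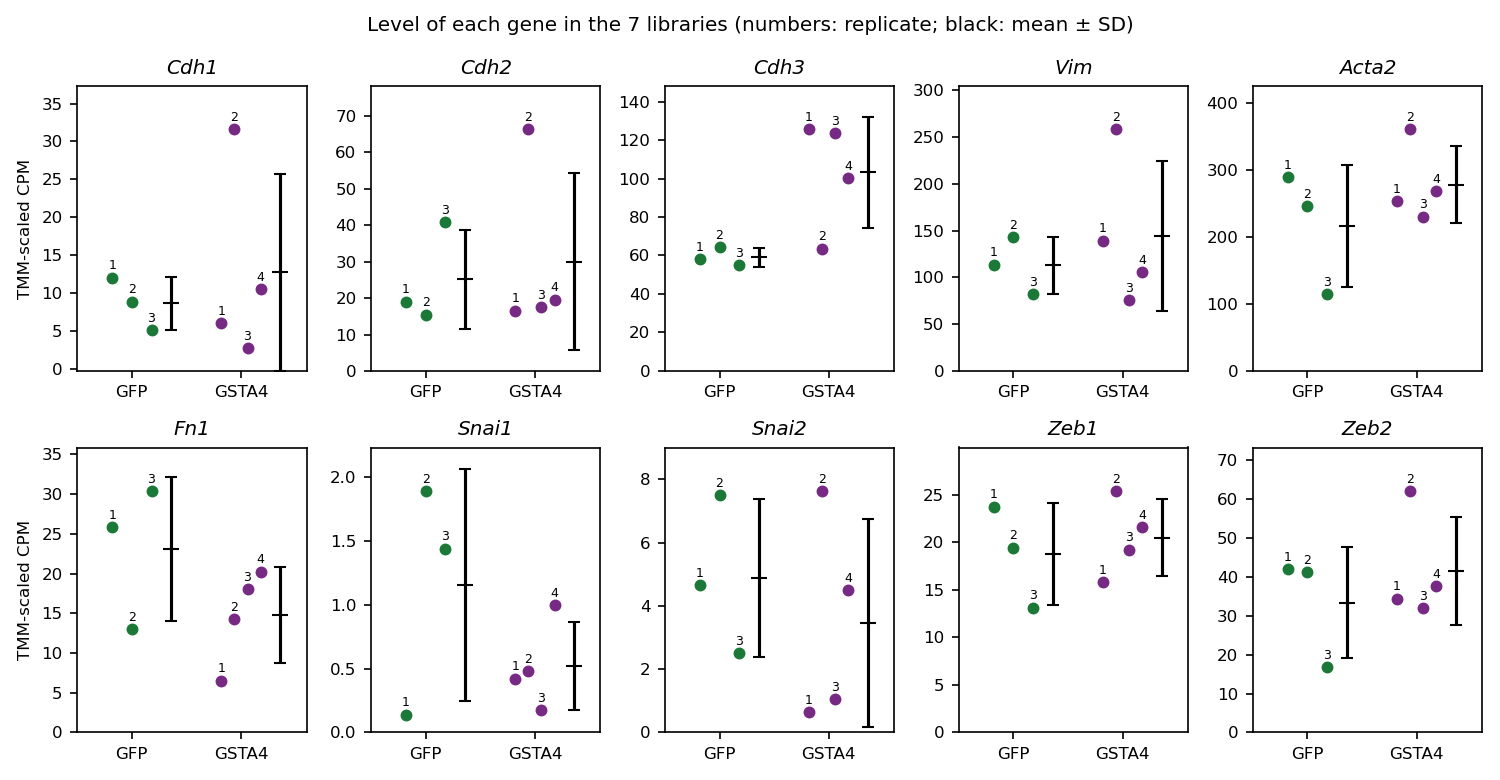
TMM-scaled CPM of the 10 genes (linear axes) in 3 AAV-GFP libraries (green) and 4 AAV-GSTA4 libraries (purple), with the replicate number at each point and the group mean ± SD in black. AAV-GSTA4 replicate 2 is the highest point for Cdh1, Cdh2, Vim, Acta2, Snai2, Zeb1 and Zeb2, and the groups overlap in every panel.

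Among the cadherins, the calcium-dependent adhesion proteins of adherens junctions, Cdh3 (P-cadherin, chr8:106510891-106557297 on GRCm38, as for all positions here) gave the smallest p-value of the list. Cdh3 was at 57.9, 64.3 and 54.9 CPM in the control libraries and at 126, 63.6, 124 and 100.3 CPM with AAV-GSTA4. AAV-GSTA4 replicates 1, 3 and 4 lay above every AAV-GFP library, and replicate 2 lay just under AAV-GFP replicate 2, so the groups overlapped by this library alone. Group means were 59.1 CPM ± 4.78 (SD, n = 3) with AAV-GFP and 103 CPM ± 28.8 (SD, n = 4) with AAV-GSTA4, a ratio of 1.75. This gave a log2 fold change of 0.81 ± 0.26 (SE), with a 95% interval of 0.22 to 1.40, an unadjusted p of 0.0127 and an adjusted p of 0.363 in edgeR's test. By unadjusted p it was number 513 of the 15075 genes tested.

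The Cdh3 difference was positive in all alternatives and passed the adjusted threshold in none of them. Without AAV-GSTA4 replicate 2, the lens-rich library, it was 0.99, with an unadjusted p of 0.00145 and an adjusted p of 0.324 in edgeR's test, within a range of adjusted p-values of 0.0891 to 0.865 over the alternatives. Relative to the median of all genes it was 0.88 with TMM scaling, 0.87 with median-of-ratios scaling and 0.88 with library totals. Y-linked transcripts (Ddx3y, Uty, Kdm5d and Eif2s3y together) were at 287 to 459 CPM in 3 libraries and at 0.0809 to 2.56 CPM in the 4 others. Within the first 3, Cdh3 was at 57.9 CPM in AAV-GFP replicate 1 and at 124 and 100.3 CPM in AAV-GSTA4 replicates 3 and 4. In the others it was at 64.3 and 54.9 CPM in AAV-GFP and at 126 and 63.6 CPM in AAV-GSTA4, and with a term for this class the log2 fold change was 0.78. In the AAV-GSTA4 libraries, in replicate order, human GSTA4 had levels of 222, 251, 2.65 and 43.7 CPM beside Cdh3 levels of 126, 63.6, 124 and 100.3 CPM.

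RPE markers were read beside Cdh3. Of the 15 RPE markers, 11 had a log2 fold change above 0 and 4 (Tyrp1, Dct, Pmel and Cldn19) had one below. At an unadjusted p under 0.05 there were 4 (Rdh5, Lrat, Otx2 and Stra6), all higher in AAV-GSTA4. That was 26.7%, against 11.9% of all genes (5.27% higher), and 0 had an adjusted p under 0.05 in edgeR's test. Stra6, the retinol uptake receptor, was at 906, 837 and 686 CPM in AAV-GFP and at 2064, 1157, 2645 and 1846 CPM with AAV-GSTA4. As for Cdh3, replicate 2 had the lowest Stra6 level of the AAV-GSTA4 group, and Stra6 was named because it moved with Cdh3. Replicate 2 was also the lowest of that group for Rpe65, Rdh5, Lrat, Ttr, Mitf, Otx2 and Ermn. It was not the lowest for Best1, Tyr, Tyrp1, Dct, Pmel, Cldn19 and Slc16a8. Tyrp1 and Pmel had the opposite pattern. With AAV-GSTA4, Tyrp1 was at 248, 738, 318 and 649 CPM and Pmel at 186, 428, 157 and 338 CPM, both highest in replicate 2. Their log2 fold changes were -0.47 and -0.70. The part of RPE content in the Cdh3 difference was not tested.

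Cdh1 (chr8:106603351-106670246), the neighbour of Cdh3, encodes E-cadherin, the cadherin of most epithelia. Its level was 12.0, 8.84 and 5.09 CPM in the controls and 5.999, 31.6, 2.76 and 10.5 CPM with AAV-GSTA4. The highest and the lowest library were both in AAV-GSTA4 and were 11.4-fold apart. The fitted log2 difference was 0.56 ± 0.72 (SE; 95% interval -1.05 to 2.16), with an adjusted p of 0.781 in edgeR's test. Left-out libraries moved it from -0.42 (without AAV-GSTA4 replicate 2) to 0.91 (without AAV-GSTA4 replicate 3).

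Cdh2 (chr18:16588877-16809246) encodes N-cadherin, the cadherin of neural tissue, lens and many mesenchymal cells. It was at 19.1, 15.4 and 40.8 CPM in the control libraries and at 16.6, 66.3, 17.5 and 19.6 CPM with AAV-GSTA4. A single library in each group was high, AAV-GFP replicate 3 and AAV-GSTA4 replicate 2, and the other 5 lay between 15.4 and 19.6 CPM. Those 2 libraries were also the ones with the highest share of rod markers and of lens markers; the part of these tissues in the Cdh2 level was not tested. For Cdh2 the log2 fold change was 0.26 ± 0.55 (SE; 95% interval -0.98 to 1.49), with an adjusted p of 0.880 in edgeR's test; it was -0.14 with library totals, -0.48 without AAV-GSTA4 replicate 2 and 0.81 without AAV-GFP replicate 3.

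Levels of different genes were compared as CPM per kilobase of exonic length in the GENCODE M21 annotation. On this scale Cdh3 was above Cdh2 and above Cdh1 in 7 of 7 libraries. The ratio of Cdh3 to Cdh1 was 5.03, 7.59 and 11.3 in the controls and 21.8, 2.10, 46.7 and 9.95 with AAV-GSTA4. The ratio was lowest in the lens-rich library. The ratio of Cdh2 to Cdh1, whose rise is the textbook cadherin switch, was 0.899, 0.991 and 4.55 in AAV-GFP and 1.57, 1.19, 3.58 and 1.055 in AAV-GSTA4. The groups overlapped, and the highest value was in AAV-GFP replicate 3.

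**Figure D2:**
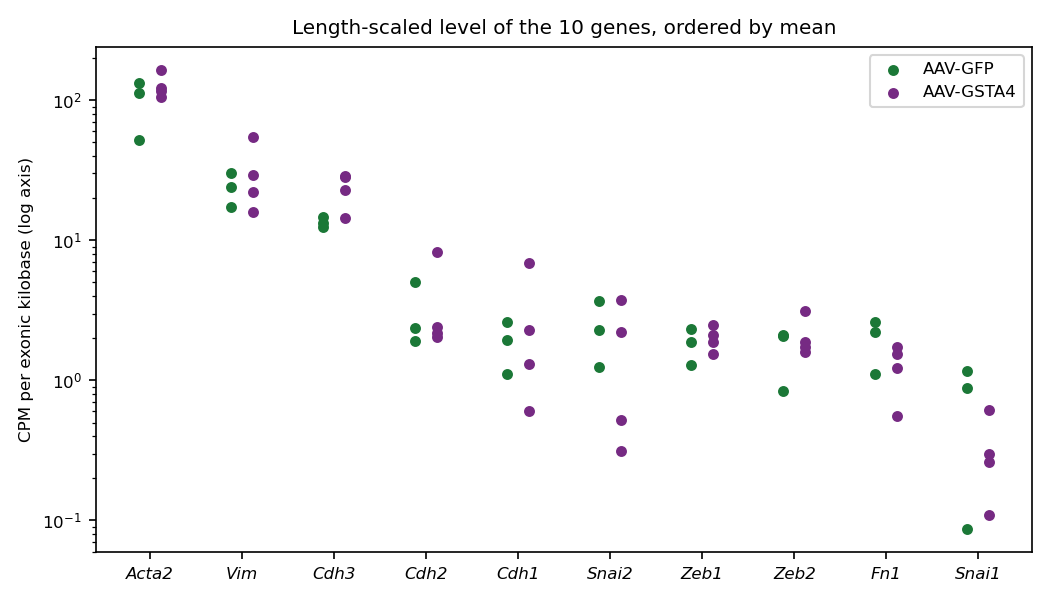
CPM per exonic kilobase (log axis) of the 10 genes, ordered by their mean over 7 libraries, with AAV-GFP in green and AAV-GSTA4 in purple. Acta2 lies highest in every library, and Cdh3 lies above Cdh1 and Cdh2 in each.

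The order of the means per kilobase over the 7 libraries was Acta2 (115 ± 33.7, SD, n = 7), Vim (27.6 ± 13.0), Cdh3 (19.2 ± 7.15), Cdh2 (3.46 ± 2.37), Cdh1 (2.40 ± 2.11), Snai2 (2.01 ± 1.40), Zeb1 (1.92 ± 0.419), Zeb2 (1.91 ± 0.681), Fn1 (1.57 ± 0.691) and Snai1 (0.489 ± 0.415). Acta2 was above Vim, and Cdh3 above Cdh2, in 7 of 7 libraries, and Fn1 was above Snai1 in 6. The other neighbours changed places between libraries: Vim was above Cdh3 in 5 of 7, and Snai2 above Zeb1 in 3 of 7. From Cdh2 to Fn1, neighbouring means differed by less than their SD.

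The mesenchymal effectors of the list are Vim (chr2:13573927-13582826), an intermediate filament protein, Acta2 (chr19:34241090-34255590), the smooth muscle actin of contractile cells and myofibroblasts, and Fn1 (chr1:71585520-71653200), the matrix glycoprotein fibronectin. Vim was at 114, 143 and 82.4 CPM in the control libraries and at 139, 258, 75.6 and 105 CPM with AAV-GSTA4. All AAV-GFP values lay inside the AAV-GSTA4 range. Its log2 fold change was 0.35 ± 0.40 (SE; 95% interval -0.55 to 1.26), with an adjusted p of 0.748 in edgeR's test, and it ran from -0.073 (without AAV-GSTA4 replicate 2) to 0.58 (without AAV-GSTA4 replicate 3).

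Acta2 was at 290, 247 and 115 CPM in the control libraries and at 254, 361, 231 and 269 CPM with AAV-GSTA4. The low library was AAV-GFP replicate 3, and the other 6 lay between 231 and 361 CPM. For Acta2 the log2 fold change was 0.36 ± 0.33 (SE; 95% interval -0.38 to 1.10), with an adjusted p of 0.687 in edgeR's test. It was 0.060 without AAV-GFP replicate 3, which had the lowest share of RPE markers, 0.22 without AAV-GSTA4 replicate 2 and 0.63 without AAV-GFP replicate 1. Other genes of contractile cells were read beside it: Myh11, the smooth muscle myosin heavy chain, ranged from 3.53 to 49.5 CPM, Tagln from 0.118 to 3.08 CPM and Cnn1 from 0.176 to 0.927 CPM. Of the 10 tested genes of this marker list, 3 had a log2 fold change above 0 and 7 below. Pdgfrb, a pericyte receptor, was the only one at an unadjusted p under 0.05 in edgeR's test (10%, against 11.9% of all genes). Its log2 fold change was 1.35, and its groups did not overlap, a pattern seen in 12% of all genes tested. All 11 mural and smooth muscle markers together took 0.0103% to 0.0108% of counts in AAV-GFP and 0.00858% to 0.00939% in AAV-GSTA4. Unlike the CPM levels, these shares are of library totals without TMM scaling. The TMM factors ran from 0.8678 in AAV-GSTA4 replicate 3 to 1.364 in AAV-GFP replicate 3. Divided by its factor, the share of AAV-GFP replicate 3 falls below that of every AAV-GSTA4 library. On the scale of the CPM levels the groups therefore overlap. Counts on the near-identical muscle actins depend on how reads that map to several genes were handled, which is not given in the sources used here; Actg2 had at most 0.474 CPM in any library and Acta1 4.13 to 44.3 CPM.

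Fn1 was at 25.9, 13.0 and 30.4 CPM in the control libraries and at 6.53, 14.3, 18.04 and 20.2 CPM with AAV-GSTA4. AAV-GFP replicates 1 and 3 lay above all AAV-GSTA4 libraries, whereas AAV-GFP replicate 2 lay below 3 of them. Mean levels were 23.1 CPM ± 9.04 (SD, n = 3) against 14.8 CPM ± 6.02 (SD, n = 4). The fitted log2 difference was -0.64 ± 0.42 (SE; 95% interval -1.58 to 0.29), with an adjusted p of 0.550 in edgeR's test. Leaving out 1 library at a time gave -0.92 (without AAV-GFP replicate 2) to -0.37 (without AAV-GSTA4 replicate 1), and -0.39 without AAV-GFP replicate 3; limma-voom with quality weights gave -0.0079.

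Of the transcription factors, Snai1 (chr2:167538195-167542814) and Snai2 (chr16:14705852-14709385) encode the zinc-finger repressors Snail and Slug. Snai1 was near the detection floor, with 3, 49 and 30 counts in the controls and 8, 10, 3 and 27 with AAV-GSTA4. A library in each group held only 3 counts, the number taken as the floor. In CPM the levels were 0.140, 1.89 and 1.44 in AAV-GFP and 0.421, 0.480, 0.176 and 0.996 in AAV-GSTA4. Snai1 had a log2 fold change of -1.14 ± 1.00 (SE; 95% interval -3.38 to 1.11), with an adjusted p of 0.671 in edgeR's test. Its values without 1 library ran from -1.66 (without AAV-GFP replicate 1) to -0.58 (without AAV-GFP replicate 2).

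Snai2 was at 4.66, 7.49 and 2.50 CPM in the control libraries and at 0.632, 7.63, 1.06 and 4.50 CPM with AAV-GSTA4. AAV-GSTA4 replicates 1 and 3 were lowest, the first of them 12.1-fold under the highest library. The same 2 libraries had the lowest share of 10 ocular surface markers, epithelial keratins and other genes of cornea and conjunctiva: 0.00860% and 0.00943%, against 0.0746% to 0.110% in the other 5. Krt15, the most abundant of these, was at 44.7 and 51.8 CPM there and at 252 to 552 CPM elsewhere. Not every marker of the list did so: Krt12 was lowest in AAV-GSTA4 replicate 4 (0.184 CPM) and Ly6d highest in AAV-GSTA4 replicate 3 (2.17 CPM). These shares are of library totals without TMM scaling, and in the other 5 libraries their order depended on it. AAV-GFP replicate 3, with Snai2 at 2.50 CPM, had the highest share of totals (0.110%). Divided by its TMM factor of 1.364, that share is the lowest of the 5. AAV-GSTA4 replicate 2, with Snai2 at 7.63 CPM, had the lowest share of totals among them (0.0746%). The part of this tissue in the Snai2 level was not tested. Its log2 fold change was -0.50 ± 0.80 (SE; 95% interval -2.30 to 1.31), with an adjusted p of 0.836 in edgeR's test. With 1 library left out at a time it ran from -1.23 (without AAV-GSTA4 replicate 2) to -0.044 (without AAV-GFP replicate 2), and was -0.13 and -0.19 without AAV-GSTA4 replicates 1 and 3.

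Zeb1 (chr18:5591860-5775467) and Zeb2 (chr2:44983632-45117395) encode zinc-finger homeodomain repressors of epithelial genes, and Zeb1 was the steadiest member over the libraries. Zeb1 was at 23.7, 19.4 and 13.1 CPM in the control libraries and at 15.8, 25.4, 19.2 and 21.5 CPM with AAV-GSTA4. Its highest and lowest libraries were 1.94-fold apart, the smallest spread of the 10 members. Zeb1 had a log2 fold change of 0.13 ± 0.28 (SE; 95% interval -0.51 to 0.76), with an adjusted p of 0.886 in edgeR's test; it was -0.13 with library totals, -0.069 without AAV-GFP replicate 3 and 0.34 without AAV-GFP replicate 1.

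Zeb2 was at 42.1, 41.2 and 16.9 CPM in the control libraries and at 34.4, 62.1, 32.0 and 37.6 CPM with AAV-GSTA4. AAV-GFP replicate 3 was low and AAV-GSTA4 replicate 2 high, and the other 5 lay between 32.0 and 42.1 CPM. Zeb2 had a log2 fold change of 0.31 ± 0.36 (SE; 95% interval -0.50 to 1.13), with an adjusted p of 0.754 in edgeR's test, and it was 0.0010 without AAV-GFP replicate 3, 0.066 without AAV-GSTA4 replicate 2 and 0.52 without AAV-GFP replicate 1. Exons of Zeb2, Zeb1 and Fn1 overlap those of genes on the opposite strand in GENCODE M21 (Zeb2os and Gm27761, Gm10125, and Apol7d), and without a stated strand setting their reads cannot be told apart.

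**Figure D3:**
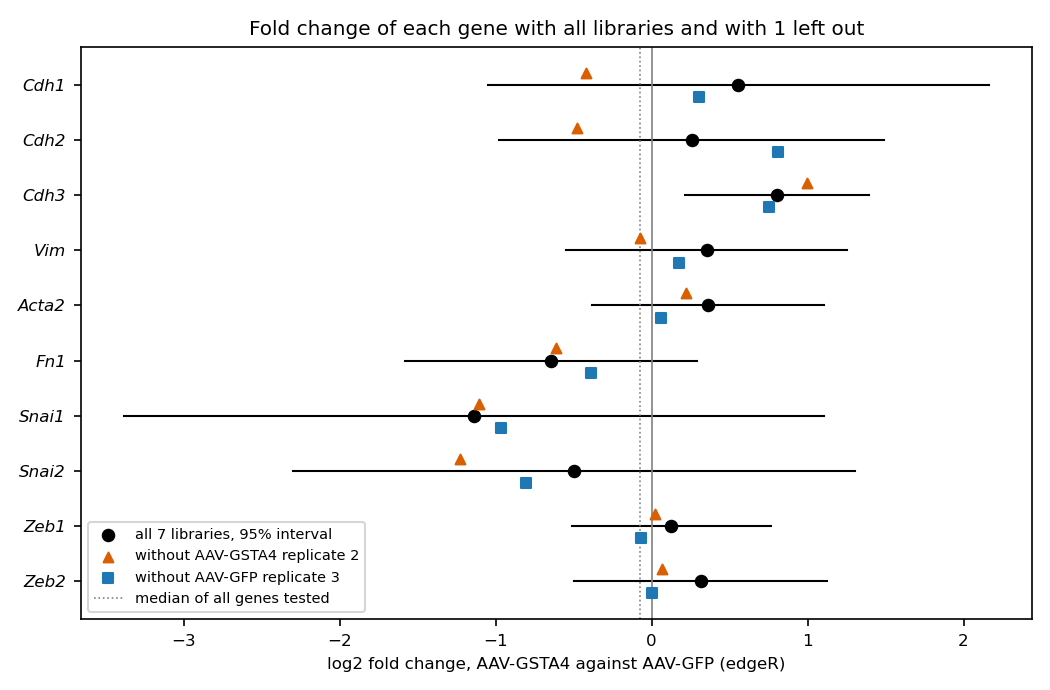
Log2 ratio, AAV-GSTA4 over AAV-GFP, for each gene in edgeR's fit with all 7 libraries (black, with 95% interval), without AAV-GSTA4 replicate 2 (orange triangles) and without AAV-GFP replicate 3 (blue squares); the dotted line is the median of all genes tested, -0.07. The interval of Cdh3 alone lies above 0, and Cdh1, Cdh2 and Vim are below 0 without AAV-GSTA4 replicate 2.

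The 10 members did not move as 1 block over the libraries. AAV-GSTA4 replicate 2 was highest for Cdh1, an epithelial gene, and also for the mesenchymal genes Cdh2, Vim and Acta2 and the factors Snai2, Zeb1 and Zeb2. AAV-GFP replicate 3 was lowest for 4 members (Cdh3, Acta2, Zeb1 and Zeb2) and highest for Fn1. AAV-GSTA4 replicate 3, in which RPE markers took their highest share at 4.25%, was lowest for Cdh1 and Vim. AAV-GSTA4 replicate 1 had the highest Cdh3 and the lowest Fn1 and Snai2. The part of lens, rod and RPE content in these levels was not tested.

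**Figure D4:**
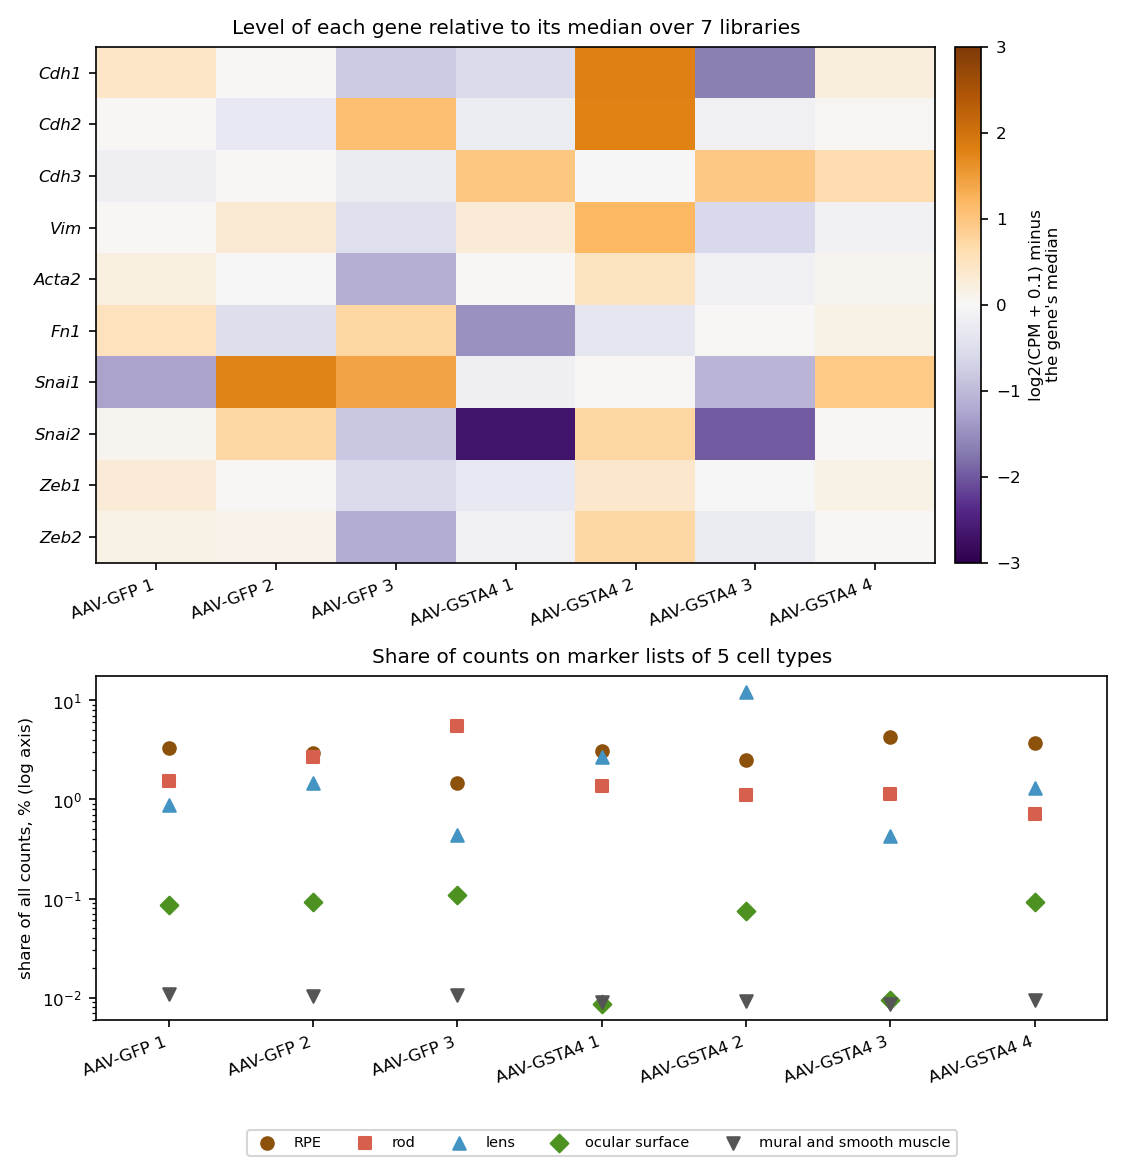
Upper panel: log2(CPM + 0.1) of each gene minus its median over the 7 libraries, from purple (lower) to orange (higher). Lower panel: share of all counts (%, log axis) on markers of RPE, rods, lens, ocular surface, and mural and smooth muscle cells; lens markers reach 12.3% in AAV-GSTA4 replicate 2, and ocular surface markers are lowest in AAV-GSTA4 replicates 1 and 3, where Snai2 is lowest. Shares are of library totals without TMM scaling, and the order of the ocular surface share in the remaining libraries depends on that scaling.

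A wider set of 121 genes of the transition, in 6 lists, was read from the same fit; 111 were tested. In edgeR's test 0 had an adjusted p under 0.05. At an unadjusted p under 0.05 there were 13, or 11.7% against 11.9% of all genes, with 10 higher and 3 lower in AAV-GSTA4. Their median log2 fold change was -0.01, beside -0.07 for all genes. Without AAV-GSTA4 replicate 2 there were 18 of 111 (14 higher and 4 lower), where 11.4% of all genes were at such a p (903 higher and 780 lower). Without AAV-GFP replicate 3 there were 14 of 114, beside 12.5% of all genes. With all 7 libraries the groups did not overlap for 12 genes higher and 2 lower of the 111. The same held for 12% of all genes tested (6.44% higher and 5.61% lower).

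Of 20 epithelial genes, 19 were tested and 3 had an unadjusted p under 0.05 (15.8%, against 11.9% of all genes). All 3 were higher in AAV-GSTA4 and had groups that did not overlap, a pattern seen in 12% of all genes. These were Krt8, a simple-epithelium keratin, at 118 CPM ± 42.0 (SD, n = 3) in controls and 214 CPM ± 43.6 (SD, n = 4) with AAV-GSTA4; Dsp, the desmosomal protein desmoplakin, at 14.5 CPM ± 0.762 and 22.05 CPM ± 1.70; and Cldn1, a tight junction claudin, at 233 CPM ± 103 and 453 CPM ± 111. Their adjusted p-values were 0.373 to 0.375 in edgeR's test. The list as a whole did not share that direction: 8 of 19 fold changes were above 0, and the median was -0.25. Of the genes below 0, Esrp1 encodes a splicing factor of epithelia. It was at 5.22, 3.48 and 8.74 CPM in AAV-GFP and at 0.579, 3.65, 0.470 and 3.95 CPM in AAV-GSTA4. Esrp1 was thus lowest in the libraries with the fewest ocular surface counts. Epcam, Tjp1, Krt19, Cldn3, Cldn7, Pkp3, Grhl1 and Ovol1, also below 0, were lowest in the same libraries, while Cldn4 and Jup were not. The genes above 0 did not share this pattern. The part of ocular surface tissue was not tested, and these genes were chosen after their values were seen.

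Of 33 mesenchymal genes, 31 were tested. At an unadjusted p under 0.05, 2 were higher and 1 was lower in AAV-GSTA4 (9.68%, against 11.9% of all genes). The median log2 fold change was 0.26. Thbs1, which encodes the matrix protein thrombospondin-1, was at 232, 337 and 227 CPM in AAV-GFP and at 604, 519, 849 and 583 CPM in AAV-GSTA4. Every AAV-GSTA4 library was above every AAV-GFP library. Thbs1 had a log2 fold change of 1.27 ± 0.28 (SE), an unadjusted p of 0.00135 and an adjusted p of 0.363 in edgeR's test. Fbn1, the microfibril protein fibrillin-1, had a log2 fold change of 0.82 ± 0.29 (SE), and Mmp14, a membrane-bound matrix metalloproteinase, one of -0.89 ± 0.34 (SE). Without AAV-GSTA4 replicate 2 the number of mesenchymal genes at an unadjusted p under 0.05 was 7 of 31 in place of 3, of which 6 were higher, beside 11.4% of all genes in that fit. The median of the list fell to 0.091 there, beside -0.08 for all genes. Without AAV-GFP replicate 3 there were 4 of 32 (2 higher and 2 lower), beside 12.5% of all genes, and the median was 0.020.

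Of 15 other transcription factors of the transition, 10 were tested and 0 had an unadjusted p under 0.05. Twist1, Twist2, Snai3, Foxc2 and Gsc did not pass the filter on low counts. Snai3 was at 4.08 CPM in AAV-GFP replicate 3 and at most 0.443 CPM in the other libraries, and Twist1, a helix-loop-helix factor, had at most 0.695 CPM in any library. Of 16 other cadherins, catenins and junction partners, all tested, 2 had an unadjusted p under 0.05 (12.5%, against 11.9% of all genes). Cdh4 (R-cadherin) was at 16.0, 11.1 and 13.9 CPM in AAV-GFP and at 19.6, 19.0, 35.0 and 26.0 CPM in AAV-GSTA4, with no overlap and a log2 fold change of 0.86 ± 0.30 (SE). Ctnna1, alpha-catenin, which ties cadherins to actin, was at 305 CPM ± 51.8 (SD, n = 3) in controls and 441 CPM ± 36.4 (SD, n = 4), also with no overlap. Their adjusted p-values were 0.371 and 0.411 in edgeR's test.

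Of 25 inducers and their receptors, 24 were tested. At an unadjusted p under 0.05, 3 were higher and 1 was lower in AAV-GSTA4 (16.7%, against 11.9% of all genes). Tgfbr3, the TGF-beta co-receptor betaglycan, was at 83.5 CPM ± 15.2 (SD, n = 3) in controls and 148 CPM ± 30.9 (SD, n = 4), and the ligand Bmp4 at 83.1 CPM ± 30.8 and 169 CPM ± 47.4, both without overlap. Met, the hepatocyte growth factor receptor, had a log2 fold change of 0.88 ± 0.39 (SE) and its ligand Hgf one of -1.34 ± 0.54 (SE), each with overlap. Adjusted p-values of these 4 were 0.363 to 0.413 in edgeR's test. The ligand Tgfb1 did not pass the filter. Of 12 relatives of vimentin and the actins, 11 were tested and 1 had an unadjusted p under 0.05 (9.09%, against 11.9% of all genes). This was the cardiac actin Actc1, lower in AAV-GSTA4, at 1.49, 4.29 and 6.48 CPM in AAV-GFP and 1.42, 0.432, 0.999 and 0.258 CPM in AAV-GSTA4.

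**Figure D5:**
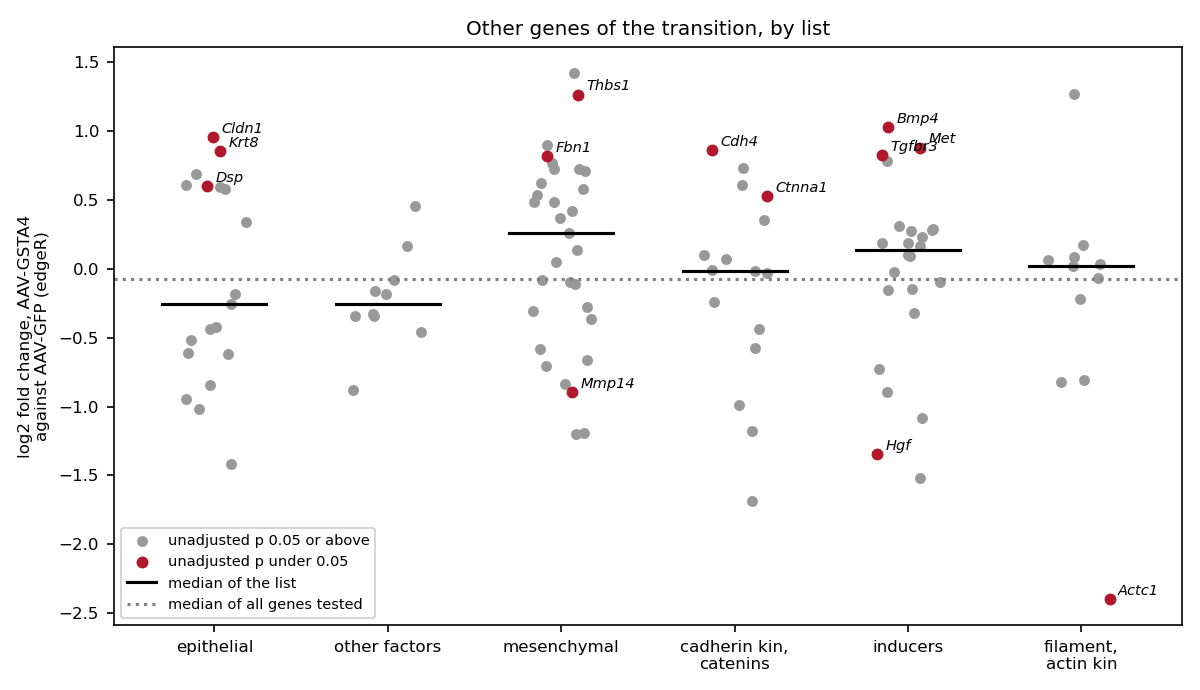
Log2 ratio, AAV-GSTA4 over AAV-GFP, in edgeR's fit for the tested genes of 6 lists (points), with the list's median (black bar) and the median of all genes tested (dotted, -0.07). Genes with an unadjusted p under 0.05 are red and named; none has an adjusted p under 0.05.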

How the data were processed

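The authors deposited 1 table of raw read counts per gene symbol. STAR 2.7.1a, featureCounts 1.6.2 and human and mouse genome builds are listed per the submitters' processing notes, without their roles; the annotation, the strand setting and the treatment of multi-mapping reads are not given in the sources used here. Per the labels' protocols, full-length cDNA was amplified from low-input RNA; without molecular identifiers, floors (3 counts) and intervals cover counting error and library spread only.

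Columns were matched to samples by library name, and replicates are named by the titles. Of repeated symbols (26 extra rows), the highest row kept the plain symbol. The test was edgeR 4.0.16 (R 4.3.3) quasi-likelihood with robust estimation, TMM scaling and the default expression filter, on all 7 libraries; Benjamini-Hochberg adjusted p-values had a threshold of 0.05. SEs are the fold change over the square root of F. DESeq2 1.42.0 and limma 3.58.1 were alternatives. The fit was tested on simulated counts.

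All 10 members are named; of each other list, genes past the adjusted threshold and then those of smallest unadjusted p under 0.05, up to 4. Esrp1 and the epithelial genes named with it were chosen after their values were seen, and Stra6 because it moved with Cdh3. The members and lists were chosen with earlier results of these data known. Sequences are from RefSeq (GRCm38.p6), lengths from GENCODE M21.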

Additional observations from a re-analysis of the deposited data

Results flagged for a closer look

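Cdh2 in AAV-GSTA4 replicate 2 lay far from the other 3 libraries of its group: on the log2 CPM scale the gap to the nearest was 0.881 of the group's range, above Dixon's 95% critical value for 4 libraries. Its level there was 66.3 CPM, against 16.6 to 19.6 CPM in the others. It was the only one of 35 results examined in this way, and chance gives about 1 in 20.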

How the results depend on the processing

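Beside the reported fit, 15 alternatives were planned and 2 were added after seeing the data (a term for Y-linked transcripts, and limma-voom without robust moderation). No member passed the adjusted threshold in any of them. Over all genes, 0 passed in the reported fit, 201 with DESeq2, 146 with limma-voom with quality weights (0 without robust moderation), 1 with the replicate block by either numbering, and 0 to 1 when each library was left out in turn; the cause was not tested. At an unadjusted p under 0.05 there was 1 member (Cdh3), 0 with library totals, 0 with the replicate block by title numbers, and 1 whichever library was left out. Acta2, Cdh3, Fn1, Snai1 and Snai2 kept their sign throughout. The log2 fold change of Cdh1 was -0.15 with limma-voom with either moderation, -0.053 and -0.56 with the replicate block by title and library-name numbers, and from -0.42 (without AAV-GSTA4 replicate 2) to 0.91 when each library was left out. That of Cdh2 was -0.14 with library totals, -0.36 with the block by library names and from -0.48 (without AAV-GSTA4 replicate 2) to 0.81 when each was left out. That of Vim was -0.19 with limma-voom with either moderation, -0.085 with the block by library names and from -0.073 (without AAV-GSTA4 replicate 2) to 0.58 when each was left out. Zeb1 was at -0.13 with library totals and from -0.069 (without AAV-GFP replicate 3) to 0.34 when each was left out, and Zeb2 at -0.041 with limma-voom with either moderation. Library totals moved the median of all genes from -0.07 to -0.37, and genes at an unadjusted p under 0.05 from 795 higher and 999 lower to 267 higher and 2133 lower. Same-numbered libraries did not deviate together (correlations of -0.0889 to 0.00904 by title and -0.128 to 0.0146 by library name), so the numbers were not taken as pairs. Snai1 was left out by the minimum of 10 counts and by the filter without AAV-GSTA4 replicate 4; it had 3 counts in a library of each group.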
